A study of Homo sapiens with 24 samples.

Results

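The genes described here encode the replicative DNA helicase of human cells: the ring subunits MCM2, MCM3, MCM4, MCM5, MCM6 and MCM7, the cofactor CDC45, and the GINS subunits GINS1, GINS2 and GINS3. They were chosen by gene name, 10 of the 26249 genes in the deposited tables, and all 10 were among the 12418 genes tested. RNA was measured in the human multiple myeloma lines H929 and MM1S, both long established in culture, in 24 libraries that form 8 groups of 3. Each line received the vehicle DMSO or the compound YKL-5-124 (YKL below), an inhibitor of the kinase CDK7 by the series title, for 6 h or 24 h. The labels give 83 nM for every H929 group and 98 nM for every MM1S group, the DMSO groups included, so line and dose cannot be told apart. No genotype change is stated for either line. Nothing states that the replicates of a line were grown separately, so p-values measure the spread between libraries, which may be technical.

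The MCM proteins form a ring of related ATPases that is loaded in inactive form around DNA at replication origins in G1 phase, a step called licensing. In S phase CDC45 and the GINS complex join the ring to form the CMG helicase, which unwinds DNA ahead of the polymerases. Transcription of these genes rises at the G1 to S transition and is a textbook target of the E2F factors. CDK7 is the catalytic subunit of the CDK-activating kinase and part of TFIIH, so it acts both on cell cycle CDKs and on RNA polymerase II.

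The promoters of 5 members are shown as examples that differ in the motifs they hold. They were chosen with the changes below known, and a link between motif and change was not tested. Each is the RefSeq window (GRCh38.p14) of 250 bases before to 50 bases after a transcript start, read 5′ to 3′ on the strand of the gene. Capitals mark TTTCGCGC or TTTGGCGC in either direction (E2F) in MCM2, MCM3 and MCM6, and CCAAT in either direction (NF-Y) in CDC45. MCM3 and MCM6 also hold CCAAT, which is left in lower case there. GINS3 has no match to these motifs, but only these spellings were searched. TTTCCCGC, a spelling close to TTTCGCGC, was not searched. It can be read in the GINS3 window (as gcgggaaa) and in the MCM3 window (as tttcccgc). TTTGGCGG, a spelling close to TTTGGCGC, was not searched either and can be read in the CDC45 window (as tttggcgg). The windows are chr3:127598161-127598460 on the + strand for MCM2, chr6:52284693-52284992 on the - strand for MCM3, chr2:135876394-135876693 on the - strand for MCM6, chr22:19479670-19479969 on the + strand for CDC45 (the first of 3 windows) and chr16:58392221-58392520 on the + strand for GINS3.
MCM2: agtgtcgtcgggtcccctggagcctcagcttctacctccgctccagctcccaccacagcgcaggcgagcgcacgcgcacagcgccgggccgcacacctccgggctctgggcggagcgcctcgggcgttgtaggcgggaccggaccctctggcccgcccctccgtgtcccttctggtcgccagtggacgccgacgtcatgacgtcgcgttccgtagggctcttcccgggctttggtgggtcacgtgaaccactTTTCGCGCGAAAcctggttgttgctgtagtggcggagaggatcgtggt
MCM3: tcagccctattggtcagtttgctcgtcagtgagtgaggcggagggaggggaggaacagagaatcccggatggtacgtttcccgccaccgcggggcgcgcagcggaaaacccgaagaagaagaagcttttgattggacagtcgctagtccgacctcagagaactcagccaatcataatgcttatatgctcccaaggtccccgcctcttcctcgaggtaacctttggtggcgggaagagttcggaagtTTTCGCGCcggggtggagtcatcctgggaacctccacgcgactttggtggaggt
MCM6: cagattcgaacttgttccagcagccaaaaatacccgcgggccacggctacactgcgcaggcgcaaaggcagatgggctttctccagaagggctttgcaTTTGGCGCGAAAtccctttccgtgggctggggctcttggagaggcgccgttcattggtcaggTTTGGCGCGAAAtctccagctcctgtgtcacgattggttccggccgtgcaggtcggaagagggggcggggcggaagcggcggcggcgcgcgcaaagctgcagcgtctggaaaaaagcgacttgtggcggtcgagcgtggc
CDC45: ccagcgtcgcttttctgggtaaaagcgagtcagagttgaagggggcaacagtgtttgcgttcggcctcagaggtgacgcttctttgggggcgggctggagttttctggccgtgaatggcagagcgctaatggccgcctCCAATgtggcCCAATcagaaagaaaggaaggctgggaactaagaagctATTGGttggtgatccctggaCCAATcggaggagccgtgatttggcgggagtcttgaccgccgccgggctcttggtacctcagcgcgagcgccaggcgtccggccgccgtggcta
GINS3: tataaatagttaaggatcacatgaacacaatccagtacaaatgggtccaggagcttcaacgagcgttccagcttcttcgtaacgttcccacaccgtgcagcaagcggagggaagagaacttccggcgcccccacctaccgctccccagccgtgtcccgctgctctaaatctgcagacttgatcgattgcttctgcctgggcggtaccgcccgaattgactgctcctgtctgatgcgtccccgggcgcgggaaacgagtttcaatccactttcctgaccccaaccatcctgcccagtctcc

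The RefSeq table gave 12 windows for 8 members, with 3 each for MCM7 and CDC45. Either E2F motif was found in a window of 5 of these 8 members (MCM2, MCM3, MCM6, MCM7 and GINS1), for MCM7 in 1 of its 3. Of all 35116 windows of the same length 1.15% held either motif. A member counts if any of its windows matches, so for each motif the member count and the share of windows are unlike measures. TTTCGCGC alone was in 0.515% and TTTGGCGC in 0.652% of all windows. The matches overlap on opposite strands in MCM2 (from 3 and 7 bases after the start) and in both places in MCM6 (from positions -152 and -90). CCAAT was found in 6 of the 8 members (MCM3, MCM6, MCM7, CDC45, GINS1 and GINS2) and in 34.6% of all windows. The E-box CACGTG was found in MCM2 and MCM7 and in 7.26% of all windows. These are matches of letters, not shown sites.

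The deposited values are FPKM (fragments scaled to gene length and library) on a scale on which the added ERCC spike-in RNAs are level, so that a shift in a library's total RNA carries all its genes along. Summed gene FPKM ranged from 361698 to 2519630 between libraries, and the sequencing depth is unknown. The median gene in the MM1S libraries at 24 h lay 0.31 to 1.46 below its mean over all libraries on the log2 scale, and in H929 DMSO at 6 h 0.70 to 1.03 above it. Changes are therefore given as deposited, and after median-of-ratios rescaling where named as rescaled. In MM1S YKL 6 h replicate 2 and MM1S DMSO 24 h replicate 1 the spike-ins scattered most, with SDs of 0.964 and 0.58 (log2). In the 6 h DMSO groups the H929 marker FGFR3 averaged 29.5 FPKM in its own line and 0.222 in the other, and the plasma cell gene SDC1 averaged 644 and 554. The MM1S marker MAF set the lines apart less, with 45.2 FPKM in MM1S and 20.7 in H929 with DMSO at 6 h. With DMSO at 24 h MAF averaged 16.4 and 16.2 FPKM (30.7 and 9.17 after rescaling). The T cell gene CD3E reached a group mean of 2.65 FPKM at most and the fibroblast gene COL1A1 1.41.

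In MM1S most of the helicase genes were already lower after 6 h of YKL: 7 of the 10 passed the test (limma, Benjamini-Hochberg adjusted p under 0.05) and none was higher. The background was 10.0% of the 12418 genes lower and 0.926% higher. The YKL libraries were below all DMSO libraries for 9 members (36.8% of all genes). The 7 were MCM2, MCM3, MCM4, MCM6, MCM7, GINS1 and GINS3. The median log2 change was -1.21 over the members and -0.29 over all genes. After rescaling the same count of 7 was lower, with a background of 7.21% and medians of -0.75 and 0.05. Whether fewer cells expressed these genes or each cell held less of their RNA cannot be told apart in bulk libraries.

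MCM4, a subunit of the catalytic core of the ring, changed most among the ring genes. Its replicates stood at 55.3, 53.3 and 64.7 FPKM with DMSO and at 14.2, 13 and 15.7 with YKL in MM1S at 6 h. All YKL libraries were thus far below all DMSO libraries, and the replicates lay close together. MCM4 fell by 1.94 ± 0.25 on the log2 scale (SE, n = 3 per group), a 4.04-fold lower mean, with an adjusted p of 8.50e-05 (limma).

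MCM3, which sits next to MCM5 in the ring, stood at 83.5, 81.4 and 88.0 FPKM with DMSO and at 25.0, 23.2 and 21.9 with YKL. Its groups were as clearly apart, with a log2 change of -1.81 ± 0.31 and an adjusted p of 0.000898. MCM6, the partner of MCM2 and MCM4 in the ring, stood at 26.6, 25.8 and 17.3 FPKM with DMSO and at 7.82, 6.30 and 7.0 with YKL. MCM6 DMSO replicate 3 was lower than the other two but still above every YKL library. Its log2 change was -1.57 ± 0.24, with an adjusted p of 0.000383. MCM2 and MCM7 moved less. MCM2, which also binds histones, went from a mean of 54.5 ± 2.84 to 22.5 ± 3.53 FPKM (SD, n = 3; log2 change -1.25, adjusted p = 0.00627). MCM7, another subunit of the catalytic core, went from 72.4 ± 19.3 to 31.0 ± 3.81 (log2 change -1.17, adjusted p = 0.0126).

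MCM5, which forms with MCM2 the gate through which the ring opens around DNA, stood apart from the other ring genes. Its MM1S libraries held 47.8, 57.7 and 39.9 FPKM with DMSO and 31.4, 26.5 and 32.6 with YKL at 6 h. The groups did not overlap, but its log2 change of -0.66 ± 0.26 missed the threshold (adjusted p = 0.101) and was -0.20 after rescaling (adjusted p = 0.419). MCM5 passed in 2 of 18 alternative settings, with only the groups compared fitted (adjusted p = 0.0318) and with array weights (0.00328).

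CDC45 was the member whose 6 h libraries overlapped in MM1S. It stood at 11.6, 14.7 and 9.65 FPKM with DMSO and at 9.74, 10.1 and 7.78 with YKL. Its log2 change was -0.34 ± 0.24 as deposited (adjusted p = 0.384) and 0.09 after rescaling (adjusted p = 0.835), so that even the sign depends on the scale.

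The GINS genes differed among themselves. GINS3 stood at 8.60, 8.38 and 7.30 FPKM with DMSO and at 2.12, 1.15 and 2.14 with YKL in MM1S at 6 h. Its mean was 4.49-fold lower, the largest ratio among the 10 members at this time, with a log2 change of -1.72 ± 0.24 and an adjusted p of 0.000142. GINS1 went from 5.33 ± 1.08 to 2.59 ± 0.443 FPKM (SD, n = 3), a log2 change of -0.81 ± 0.23 with an adjusted p of 0.0248. The GINS1 call held in 8 of 18 alternative settings, and among others was lost with a pseudocount of 0.1 (adjusted p = 0.0601) and with no filter (0.0546). GINS2 held 27.4 to 41.1 FPKM with DMSO and 12.3 to 19.7 with YKL, and its log2 change of -1.02 ± 0.34 missed the threshold (adjusted p = 0.0573). It passed in 4 of 18 alternative settings, with adjusted p-values of 0.00182 to 0.0462. GINS1, GINS2 and GINS3 are subunits of 1 complex, and the MM1S means of these 3 genes were 2.06-fold, 2.08-fold and 4.49-fold lower.

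The MM1S count rests in part on the library with the widest spike-in scatter. Without MM1S YKL 6 h replicate 2 and MM1S DMSO 24 h replicate 1, 5 members were lower as deposited and 6 after rescaling. As deposited MCM7 (adjusted p = 0.0587) and GINS1 (adjusted p = 0.112) then missed the threshold, while MCM2, MCM3, MCM4, MCM6 and GINS3 passed it on both scales. The calls of MCM7 and GINS1 were also lost as deposited without MM1S DMSO 6 h replicate 1 (adjusted p = 0.0632 and 0.105) or replicate 2 (0.0663 and 0.0927), and that of GINS1 without YKL replicate 1 (0.0545).

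**Figure D1:**
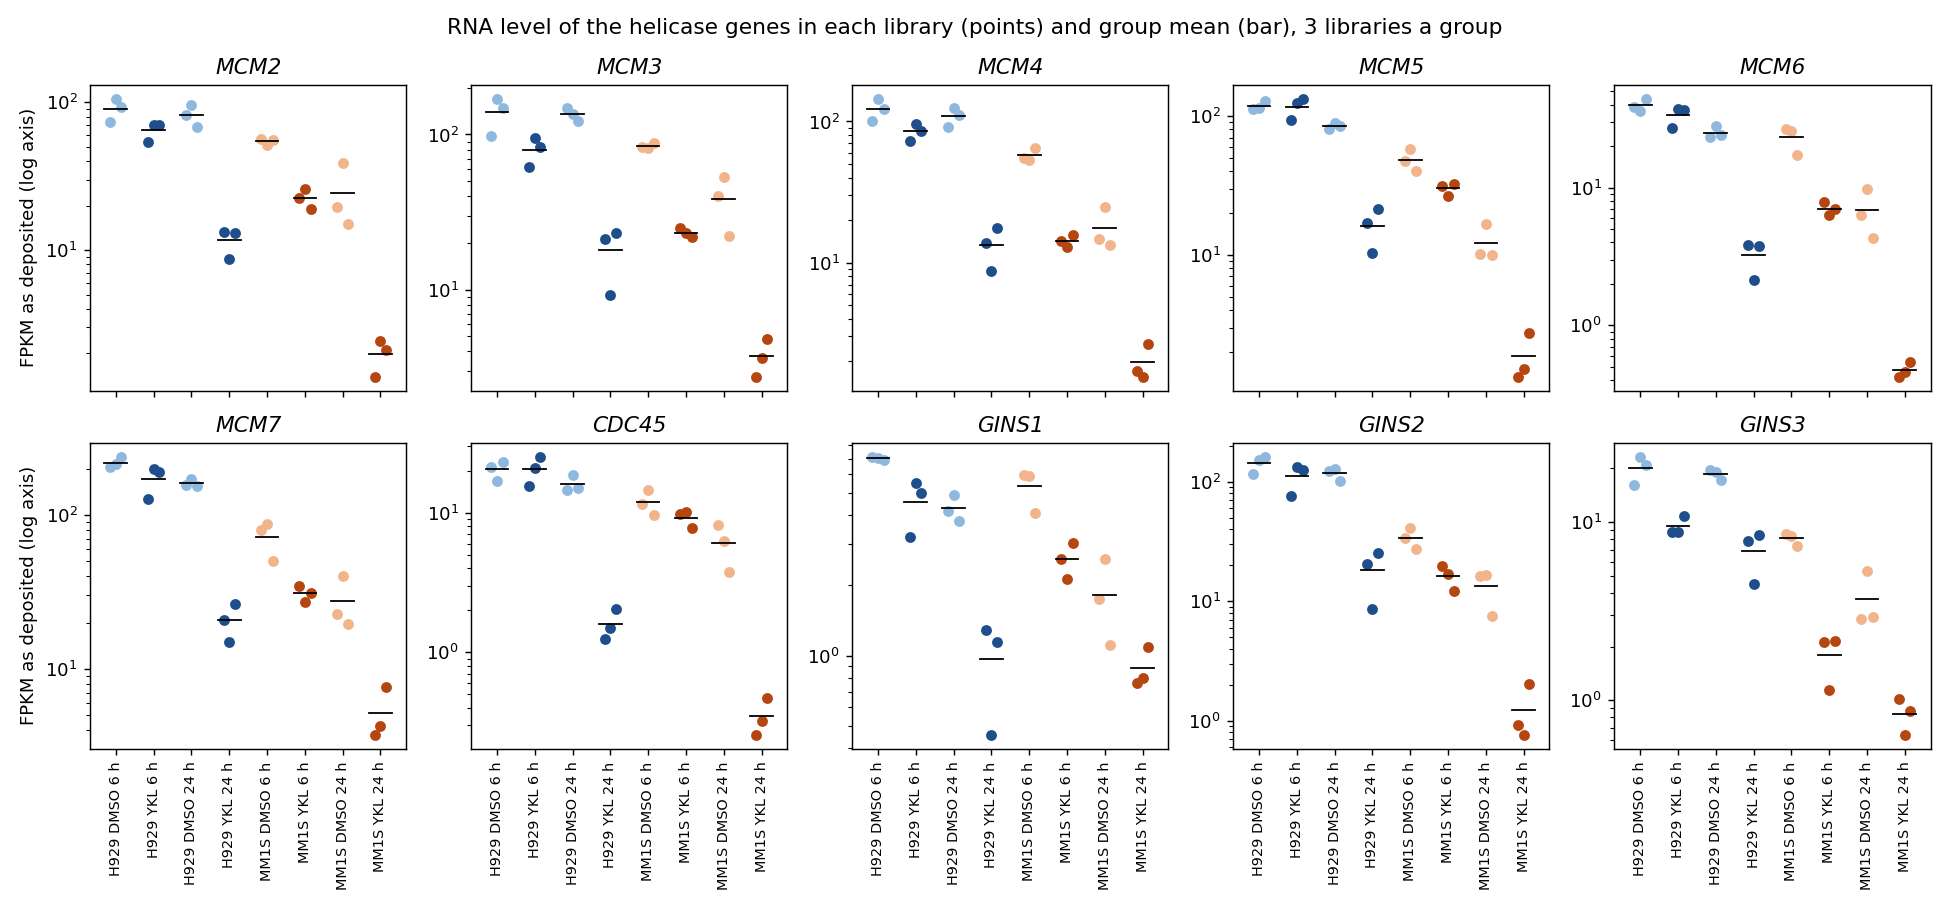
Levels of the 10 helicase genes in all 24 libraries, as deposited FPKM on a log axis, with a point for each library by line, treatment and time. MM1S libraries with YKL lie below those with DMSO at 6 h for 9 of 10 genes, CDC45 being the exception, and both lines are low with YKL at 24 h.

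In H929 fewer of the same genes passed the test at 6 h, although all 10 had a negative log2 change as deposited. GINS3 alone passed the test as deposited (1 of 10, none higher, background 1.16% lower and 1.03% higher), and MCM3 and GINS3 passed after rescaling (background 4.19%). The median log2 change of the members was -0.43, against -0.06 over all genes. At an unadjusted p under 0.05, 3 members were lower, and for 6 the YKL libraries were below all DMSO libraries (12.5% of all genes).

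GINS3 stood at 16.1, 23.2 and 21.0 FPKM with DMSO and at 8.74, 8.84 and 10.8 with YKL in H929 at 6 h. Its groups did not overlap, and its log2 change was -1.0 ± 0.24 (adjusted p = 0.0261). The call was lost on leaving out DMSO replicate 2 or 3 or any of the YKL replicates (adjusted p = 0.0523 to 0.143), and kept without DMSO replicate 1 (0.0248). MCM3 held 97.6, 170 and 149 FPKM with DMSO and 62.1, 95.2 and 82.6 with YKL, all lower, with an adjusted p of 0.224 as deposited and 0.0348 after rescaling. MCM4, the ring gene with the largest change in MM1S, held 101, 145 and 123 FPKM with DMSO and 72.8, 96.6 and 85.5 with YKL in H929 (log2 change -0.52 ± 0.25, adjusted p = 0.338). For MCM5, MCM6, CDC45 and GINS2 the H929 groups overlapped at 6 h. MCM5 averaged 118 ± 8.59 FPKM under the vehicle and 117 ± 20.7 under YKL (SD, n = 3). CDC45 averaged 20.5 ± 3.23 and 20.5 ± 4.86. In both lines, then, GINS3 was among the genes with the lowest 6 h ratios and MCM5 and CDC45 were at or near the other end.

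**Figure D2:**
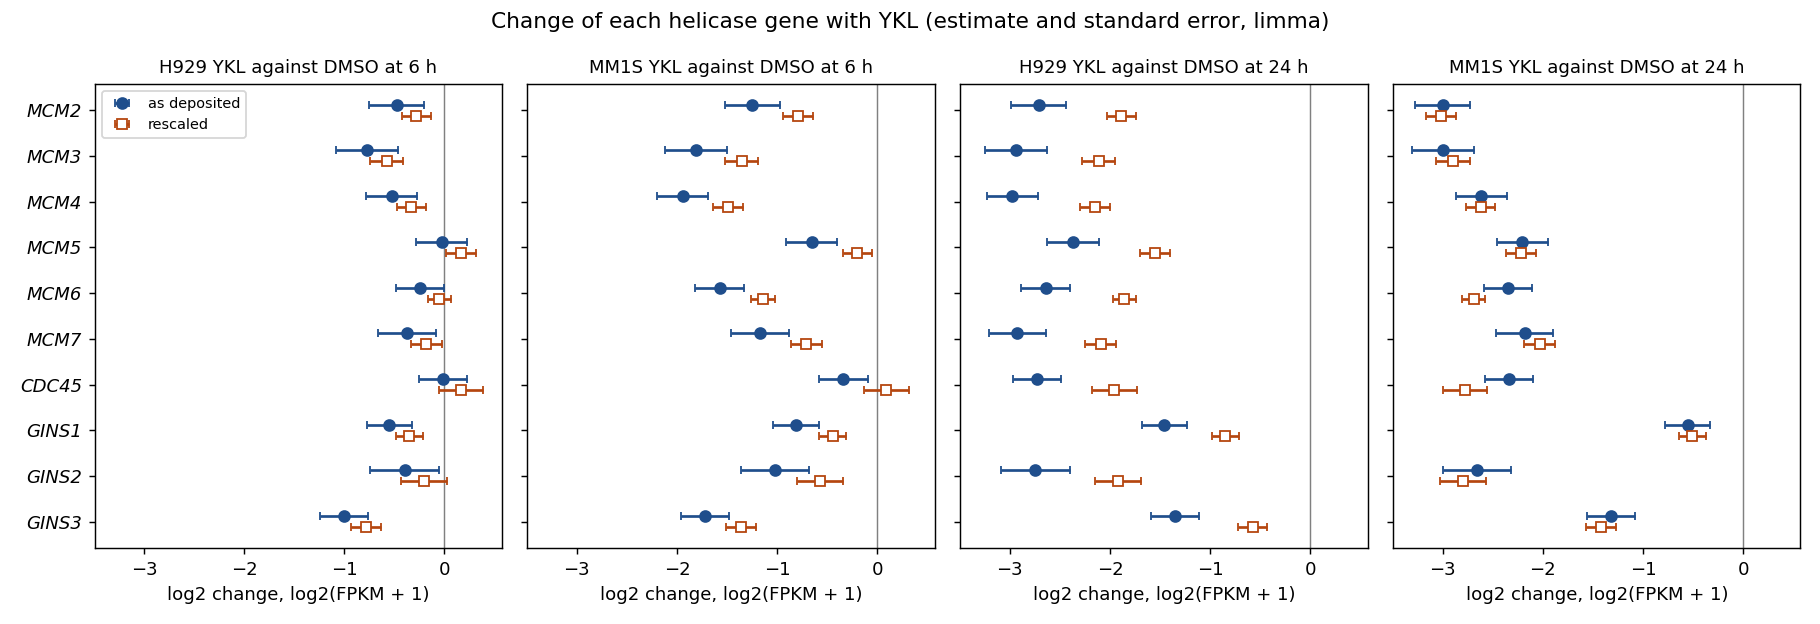
Log2 change with YKL against DMSO for each gene, line and time (log2(FPKM + 1), limma), with its error. At 6 h the MM1S values reach -1.94 for MCM4 while the H929 values stay between -1.0 for GINS3 and -0.01 for CDC45.

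Whether the 6 h response differed between the lines was tested as an interaction, the MM1S change minus the H929 change. The difference was negative for all 10 members, with a median of -0.75 against -0.24 over all genes. As deposited no member passed (0 of 10, limma, background 0.137% lower), with 4 members at an unadjusted p under 0.05. After rescaling MCM4 and MCM6 passed (2 of 10, background 0.725%), with a median of -0.52 over the members and -0.03 over all genes.

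For MCM4 the line difference was -1.42 (95% interval -2.16 to -0.67, adjusted p = 0.107) and after rescaling -1.16 (adjusted p = 0.00924). For MCM6 it was -1.33 (95% interval -2.04 to -0.62, adjusted p = 0.107) and after rescaling -1.09 (adjusted p = 0.00198). The 6 h means of MCM4 and MCM6 were 4.04-fold and 3.30-fold lower in MM1S, against 1.45-fold and 1.18-fold in H929. For MCM3 the difference was -1.04 (95% interval -1.95 to -0.13, adjusted p = 0.396) and for MCM2 -0.78 (adjusted p = 0.503). For GINS3, lower in both lines, it was -0.72 (95% interval -1.41 to -0.02, adjusted p = 0.46). For CDC45 it was -0.33 and for GINS1 -0.26, with 95% intervals of -1.03 to 0.38 and -0.92 to 0.40 that leave room for a difference of either sign. The rescaled calls of MCM4 and MCM6 were also made without both libraries of wide spike-in scatter (adjusted p = 0.0198 and 0.0043).

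**Figure D3:**
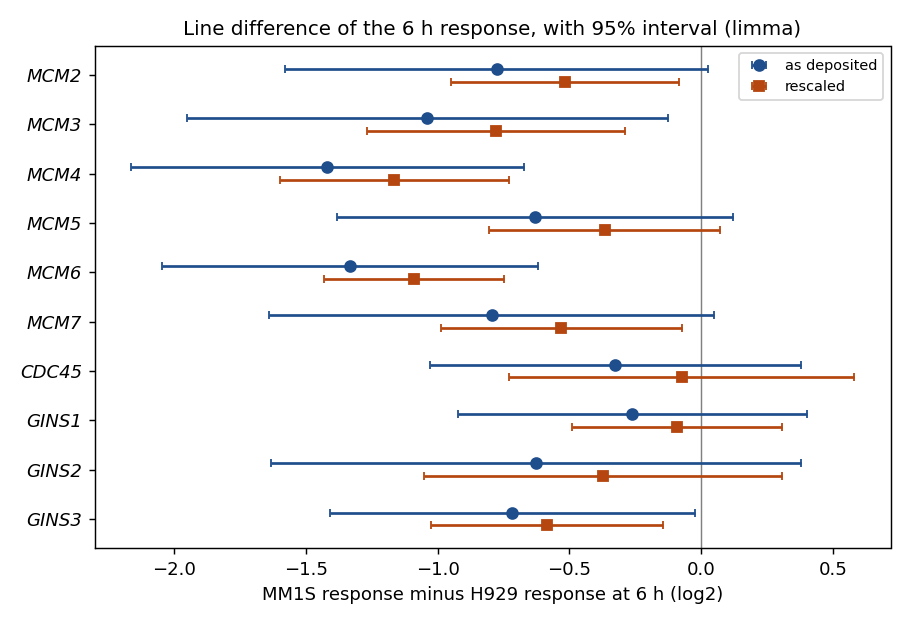
Line difference of the 6 h response (MM1S minus H929, log2) for each gene with its 95% interval, as deposited (circles) and rescaled (squares). Every deposited value is below 0, from -0.26 for GINS1 to -1.42 for MCM4, and the rescaled intervals of MCM4 and MCM6 lie farthest from 0.

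By 24 h all 10 members were lower with YKL in H929, as deposited and after rescaling, and the groups of every member were apart (45.6% of all genes). The background was 35.4% of genes lower and 2.67% higher as deposited, and 12.5% lower after rescaling. The median log2 change was -2.72 over the members and -0.46 over all genes, and -1.90 and 0.13 after rescaling. CDC45, whose groups overlapped at 6 h, stood at 14.7, 18.8 and 15 FPKM with DMSO and at 1.24, 1.5 and 2.05 with YKL. All 3 treated libraries were thus far below every DMSO library, and CDC45 had the largest ratio of means among the members (10.1-fold lower, log2 change -2.73 ± 0.24, adjusted p = 5.15e-08). MCM4 went from 91.7, 125 and 111 FPKM to 13.7, 8.76 and 17.7, an 8.14-fold lower mean (adjusted p = 3.77e-08). The ring genes as a group lay between 5.23-fold lower for MCM5 and 8.14-fold lower for MCM4. GINS3 had the smallest change at 24 h, from 19.6, 19.2 and 17.3 FPKM to 7.81, 4.49 and 8.46 (2.70-fold lower, log2 change -1.35 ± 0.24, adjusted p = 0.000152). H929 YKL 24 h replicate 2 held the lowest FPKM of its group for 9 of the 10 members, and its median gene was the lowest of all H929 libraries (-0.57 on the log2 scale).

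In MM1S at 24 h, 9 of the 10 members were lower as deposited (background 6.77%, with 0.684% higher) and 10 after rescaling (background 13.3%). The groups of all 10 were apart, against 14.6% of all genes. The median log2 change was -2.35 over the members and -0.12 over all genes. MCM6 stood at 6.35, 9.80 and 4.32 FPKM with DMSO and at 0.423, 0.460 and 0.537 with YKL. CDC45 stood at 8.12, 6.30 and 3.76 FPKM with DMSO and at 0.256, 0.319 and 0.470 with YKL. These were the lowest levels of both genes in the series, a 14.4-fold and a 17.4-fold lower mean, yet above the most common value of an undetected gene in these libraries (0.0742 to 0.0966 FPKM). With 1 FPKM added before the logarithm, such changes are understated: the log2 change was -2.35 for MCM6 and -2.34 for CDC45. MCM2 (12.4-fold lower), GINS2 (10.9-fold lower) and MCM3 (10.3-fold lower) followed.

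GINS1 was the exception in MM1S at 24 h. It stood at 1.74, 2.61 and 1.11 FPKM with DMSO and at 0.765, 0.801 and 1.09 with YKL. The highest YKL library was just under the lowest DMSO library, and the log2 change of -0.55 ± 0.23 did not pass as deposited (adjusted p = 0.164) but did after rescaling (-0.51, adjusted p = 0.00756). GINS3 stood at 2.86, 5.30 and 2.95 FPKM with DMSO and at 1.01, 0.640 and 0.873 with YKL, a 4.40-fold lower mean against 4.49-fold at 6 h. At 24 h the line difference passed for no member as deposited (0 of 10, limma, background 0.290% lower; 1 member at an unadjusted p under 0.05). After rescaling it passed for 5 members, all lower in MM1S (background 8.04%). On log2(FPKM + 1) the scale also turned the direction. The median difference was 0.23 over the members as deposited, with 2 of 10 negative, and -0.80 after rescaling (0.34 and -0.08 over all genes). Without the added 1 FPKM, the fold fall of the deposited mean was larger in MM1S for all members but MCM7 and GINS1. It was 14.4-fold in MM1S and 7.72-fold in H929 for MCM6, and 17.4-fold and 10.1-fold for CDC45. For MCM7 it was 5.28-fold and 7.72-fold, and for GINS1 2.06-fold and 4.46-fold. Which line responded more at 24 h therefore depends on the scale and on the added 1 FPKM.

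Whether the change grew from 6 h to 24 h was tested within each line. In H929 it grew for 8 of 10 members (background 6.18%, and 4.66% with 8 members after rescaling), the ring genes, CDC45 and GINS2. The added change ran from -2.17 for MCM3 to -2.72 for CDC45 (adjusted p = 0.00688 and 0.000145). For GINS1 it was -0.91 (adjusted p = 0.0859), and for GINS3 -0.35 as deposited and 0.20 after rescaling (adjusted p = 0.529 and 0.673). In MM1S CDC45 alone passed as deposited (1 of 10, background 0.0483%), with an added change of -2.0 ± 0.34 (adjusted p = 0.0225). That call was lost on leaving out DMSO 6 h replicate 3, YKL 6 h replicate 2, DMSO 24 h replicate 1 or YKL 24 h replicate 1 or 2 (adjusted p = 0.051 to 0.09). Without DMSO 24 h replicate 2 or 3, 3 members passed. After rescaling 8 of 10 passed in MM1S (background 6.28%), and the 2 that did not were GINS1 (-0.066, adjusted p = 0.881) and GINS3 (-0.056, adjusted p = 0.909). After rescaling, then, GINS1 and GINS3 were the members that passed in neither line.

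**Figure D4:**
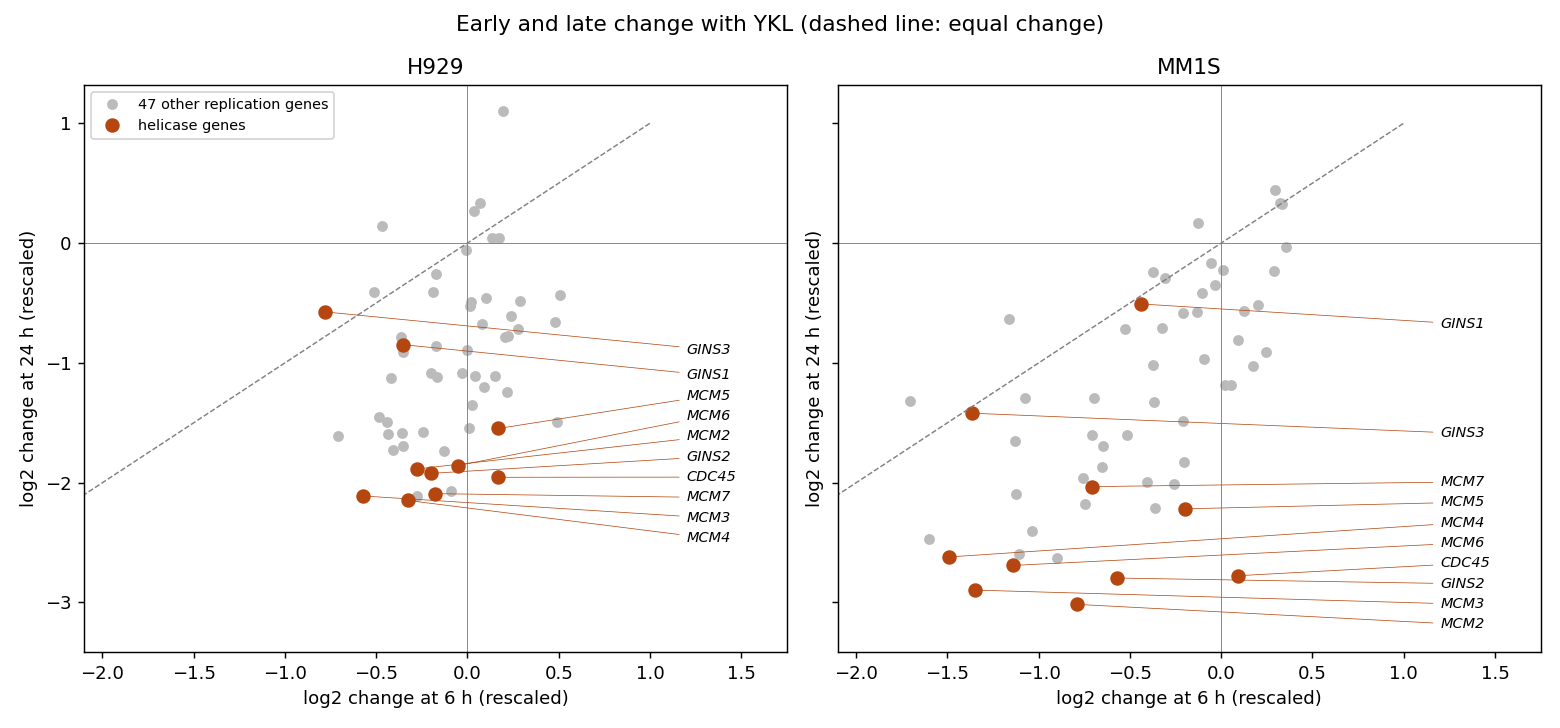
Rescaled log2 change with YKL at 6 h (horizontal axis) and 24 h (vertical axis) in each line, with the helicase genes in orange, the 47 other replication genes in grey and a dashed line of equal change. GINS3 lies near the dashed line in both panels, and CDC45 lies at 0.09 and 0.17 on the horizontal axis and near -2.78 and -1.95 on the vertical axis in MM1S and H929.

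The order of loss can be read without any library scale by setting each gene against the mean log2 FPKM of the 10 members in the same library. On this measure GINS3 was lower with YKL by 0.88 in MM1S and by 0.62 in H929 at 6 h, with no overlap between the groups. CDC45 was higher by 0.97 in MM1S and by 0.45 in H929, and MCM5 by 0.67 and 0.43, again with no overlap. At 24 h the places of GINS3 and CDC45 were exchanged. GINS3 was then higher by 1.25 in H929 and 0.86 in MM1S, and CDC45 lower by 0.63 and 1.14, with no overlap in any of these. The CDC45 groups in H929 nearly touched, with a highest YKL value of -1.675 and a lowest DMSO value of -1.666. GINS1 was higher at 24 h by 0.44 in H929 and by 1.98 in MM1S. MCM4 was lower by 0.67 and MCM3 by 0.51 in MM1S at 6 h, and in both cases the H929 groups overlapped at 6 h. These values show unequal change within the set, not that any member was stable, and the p of this measure was not computed.

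The levels with DMSO alone differed by line and time. Per gene, the order of the groups is shown for MCM4. Its mean was 123 ± 21.8 FPKM in H929 DMSO 6 h, 109 ± 16.6 in H929 DMSO 24 h, 85.0 ± 11.9 in H929 YKL 6 h and 57.8 ± 6.11 in MM1S DMSO 6 h (SD, n = 3). Then came 17.6 ± 6.14 in MM1S DMSO 24 h, 14.3 ± 1.35 in MM1S YKL 6 h, 13.4 ± 4.47 in H929 YKL 24 h and 1.98 ± 0.605 in MM1S YKL 24 h. The libraries of the first 2 groups overlapped, as did those of H929 DMSO 24 h and H929 YKL 6 h, and those of MM1S DMSO 24 h, MM1S YKL 6 h and H929 YKL 24 h overlapped with each other. The low group of MM1S DMSO at 24 h touches the 24 h comparison. In MM1S 10 of 10 members were lower in DMSO at 24 h than at 6 h as deposited (background 56.0%), and 3 (MCM4, MCM5 and MCM6) after rescaling (background 5.39%). In H929 no member differed between the DMSO times as deposited (0 of 10, limma, background 0.0403% lower; 2 members at an unadjusted p under 0.05) and MCM6 was lower after rescaling (background 0.378%). MM1S DMSO was below H929 DMSO at 6 h for 8 members as deposited (background 36.4%) and 5 after rescaling (background 22.6%). Without DMSO 6 h replicate 3 of either line the count as deposited was 5. At 24 h it was below for all 10 as deposited (background 67.9%), and after rescaling for 5 with GINS1 higher (backgrounds 22.4% lower and 35.8% higher).

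The rest of the replication machinery was counted from lists of 47 measured genes. In MM1S at 6 h 19 of the 47 were lower and none higher (16 after rescaling), against 0 of 47 in H929 (limma, backgrounds 10.0% and 1.16%; 9 at an unadjusted p under 0.05, and 1 higher after rescaling). The line difference itself passed for 0 of 47 as deposited (13 at an unadjusted p under 0.05) and for 4 after rescaling (backgrounds 0.137% and 0.725% lower). By 24 h 40 were lower in H929 and 25 in MM1S (35 and 33 after rescaling). The backgrounds differ between the lines, with 35.4% of all genes lower in H929 and 6.77% in MM1S as deposited, and 12.5% and 13.3% after rescaling. The median log2 change of the 47 in MM1S at 6 h was -0.67 as deposited and -0.31 after rescaling, against -1.21 and -0.75 for the helicase genes.

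Among 10 genes of origin recognition and licensing, 5 were lower in MM1S at 6 h. CDC6, which with CDT1 loads the MCM ring, went from a mean of 17.5 to 5.38 FPKM in MM1S (log2 change -1.53, adjusted p = 0.00076), with means of 61.5 and 50.5 in H929. GMNN, the inhibitor of CDT1, went from 45.8 to 15.6 FPKM in MM1S (adjusted p = 0.0043). MCMBP, a binding partner of the MCM proteins, went from 7.28 to 1.85 FPKM in MM1S (adjusted p = 0.000282) and stood at 7.76 and 7.04 in H929. Among 12 genes of helicase activation and fork protection, 5 were lower. CDC7, the kinase that phosphorylates the MCM ring at origin firing, went from 4.03 to 0.956 FPKM (adjusted p = 0.0017). TIPIN and CLSPN, which stabilise the moving replication fork, went from 10.9 to 1.81 FPKM and from 5.09 to 1.93 (adjusted p = 0.000142 and 0.0051). TIPIN fell by 2.07 on the log2 scale, the most of the 47. In H929 at 6 h 36 of the 47 also had a negative log2 change, down to -0.91, though none passed as deposited. H929 means are given here for CDC6, MCMBP and PCNA only, so the other named genes are not shown to be level in H929.

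Of 12 polymerase and primase genes 3 were lower in MM1S at 6 h, namely POLD3, POLD1 and POLA2. POLD1, the catalytic subunit of polymerase delta, went from 18.3 to 8.94 FPKM and its partner POLD3 from 11.2 to 4.45 (adjusted p = 0.0104 and 0.00971). POLA2, a subunit of polymerase alpha with primase, went from 18.8 to 8.34 FPKM (adjusted p = 0.0225). The POLA2 call was lost without DMSO replicate 1 or 2 or YKL replicate 1 or 3 (adjusted p = 0.0502 to 0.0902), and the POLD1 call without DMSO replicate 2 (0.0547). Of 11 genes of the clamp, its loader, single-strand binding and the lagging strand 5 were lower. PCNA, the sliding clamp, went from 138 to 32.6 FPKM in MM1S (adjusted p = 0.000282) and stood at 95.2 and 83.7 in H929. The clamp loader genes RFC4 and RFC3 went from 74.4 to 23.9 and from 4.57 to 1.17 FPKM in MM1S (adjusted p = 0.00246 and 0.000849). MCM8, a relative of the ring genes that acts in homologous recombination, went from 6.65 to 3.04 FPKM (adjusted p = 0.0232, and 0.0686 after rescaling), and its call was lost in 10 of 18 alternative settings. Its partner MCM9 stood at 2.05 and 1.30 FPKM (adjusted p = 0.187). GINS4, the remaining GINS subunit, stood at 2.46 and 1.27 FPKM (adjusted p = 0.109).

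Across the 24 libraries the members moved together as deposited, and less evenly after rescaling. Pearson correlations of log2(FPKM + 1) over the 45 pairs ran from 0.703 (CDC45 with GINS3) to 0.985 (MCM2 with MCM3), with a median of 0.942. After rescaling they ran from 0.134 (GINS1 with GINS3) to 0.963 (MCM2 with MCM3), with a median of 0.855. GINS1 then had the lowest median correlation with the other members, 0.577. The libraries share line, treatment, time and, as deposited, the whole-library scale, so these values are descriptions. Outside the members and the 47 listed genes, the 5 genes whose rescaled pattern was most like the mean of the members were RRM2, CHAF1A, UBE2T, HNRNPA1 and STRA13, with correlations of 0.979, 0.976, 0.971, 0.970 and 0.969 over 24 libraries. The median over 12418 genes was -0.19 with rescaling, and 0.67 with genes and the members' mean taken as deposited. RRM2, a subunit of ribonucleotide reductase, went from 138 ± 20.1 to 43.7 ± 2.66 FPKM in MM1S at 6 h and from 195 ± 13.2 to 18.0 ± 5.76 in H929 at 24 h (SD, n = 3). HNRNPA1 has many near-identical processed pseudogenes, and how reads shared with them were counted is not given in the sources used here.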

How the data were processed

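Libraries of the 3′ ends of polyadenylated RNA (QuantSeq) were made from 24 samples, per the labels' protocols. Each library has a table of FPKM as the authors deposited it, for which the submitters' processing notes name HISAT2, Cuffnorm and the build hg19; versions and the use of strand are not given in the sources used here. FPKM corrects for gene length, although 3′ end reads do not grow with it, so levels are compared within a gene. The tables hold 26249 genes and 92 ERCC entries and no value of 0. Low values gave no steps of whole reads, so the depth behind a value is unknown and intervals of counting error are absent.

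Groups came from the labels. limma 3.58.1 (R 4.3.3; limma-trend, two-sided) was fitted to log2(FPKM + 1) of all 24 libraries, with 8 group means, over 12418 genes (1 FPKM or more in 3 or more libraries). This scale understates the change of low genes. Adjusted p-values are Benjamini-Hochberg values over all tested genes within each of 12 comparisons, with a threshold of 0.05. Errors of log2 changes are SEs, and errors of FPKM are SDs. Rescaled values use median-of-ratios factors from genes whose geometric mean is 5 FPKM or more. The test was checked on simulated data with independent noise for each gene. That check held no shift shared by a whole library, so it does not cover such shifts. The members and lists were chosen with earlier results of these data known. All members are named, with up to 3 genes of each list by p in MM1S at 6 h, GINS4, and the 5 genes of most similar pattern. Alternatives covered scale, pseudocount, filter, samples in the fit, replicate block, weights and left-out libraries. The RefSeq promoter table (GRCh38.p14) was used for 8 members, and no promoter of MCM4 or MCM5 was analysed here.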

Additional observations from a re-analysis of the deposited data

Results flagged for a closer look

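For 9 results the response to YKL differed between 24 h and 6 h by the interaction test in limma, and each is given as the 24 h change minus the 6 h change on the log2 scale. In H929 the ring genes gave -2.24 for MCM2, -2.17 for MCM3, -2.45 for MCM4, -2.35 for MCM5, -2.40 for MCM6 and -2.55 for MCM7. CDC45 gave -2.72 and GINS2 -2.35 in H929. In MM1S CDC45 gave -2.0. All 9 were negative, so the change was larger at 24 h in each case.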

How the results depend on the processing

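In H929 at 24 h all 10 members were lower under every alternative run, and in MM1S at 24 h 9 or 10. Leaving out single libraries gave 0 to 1 members called in H929 at 6 h, 5 to 7 in MM1S at 6 h, 0 for the line difference at 6 h, 0 to 1 at 24 h (1 without MM1S DMSO 24 h replicate 2), 8 to 9 for the added change in H929, 0 to 3 in MM1S, and 5 to 9 for MM1S against H929 DMSO at 6 h.

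Other settings moved these counts, and the cause was not tested. Rescaling without the 2 libraries of wide spike-in scatter was added after seeing the data. In H929 at 6 h, against 1 call, rescaling gave 2, a pseudocount of 0.1 gave 0, fitting only the groups compared gave 0 and array weights (whose iteration stopped before convergence) gave 4. In MM1S at 6 h, against 7, array weights and fitting only the groups compared gave 9 each. There a pseudocount of 5 or a filter of 5 FPKM gave 8, and a pseudocount of 0.1 or no filter gave 6. For the line difference at 6 h, against 0, rescaling gave 2 with or without the 2 libraries of wide spike-in scatter, and array weights gave 7. For the line difference at 24 h, against 0, rescaling gave 5 and rescaling without those libraries 3, all lower in MM1S, while array weights gave 2, both higher in MM1S. For the added change in MM1S, against 1, rescaling gave 8 with or without those libraries, leaving them out on the deposited scale 0, pseudocounts of 0.1 and 5 gave 4 and 0, the groups alone 0 and array weights 8, of which 7 were lower and GINS3 was higher (0.62). With rescaling the DMSO comparison of the lines gave 5 at 6 h and 6 at 24 h (5 without those libraries), and DMSO at 24 h against 6 h gave 1 in H929 and 3 in MM1S (2 without those libraries). Array weights gave 3 in H929 there.

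The replicate numbers gave little sign of pairing: same-numbered libraries deviated together with correlations of -0.11 to 0.18, above 0.1 in 1 of 12 pairs. With so few libraries in a group, these values cannot show that the samples were not paired. With a replicate block 6 members were called in MM1S at 6 h (without GINS1, adjusted p = 0.0698, and 0.105 with rescaling), 0 in H929 at 6 h and 0 for the added change in MM1S. With the block and rescaling, 2 were called for the line difference at 6 h, 4 at 24 h, 8 for the added change in MM1S, 5 and 6 for the lines with DMSO at 6 h and 24 h, and 1 and 3 for DMSO at 24 h against 6 h in H929 and MM1S.

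Among the single-member changes with YKL at each time, their line difference at 6 h and the added changes, these signs changed. In H929 at 6 h MCM5 and CDC45 became 0.17 and 0.17 with rescaling, with or without the block, and 0.019 and 0.026 with array weights. Leaving out single libraries gave -0.12 to 0.13 for MCM5 and -0.17 to 0.17 for CDC45 there. In MM1S at 6 h CDC45 became 0.093 with rescaling, with or without the block. The added change of GINS3 in H929 became 0.20 with rescaling, with or without the block. In MM1S the added change of GINS1 became -0.066 and that of GINS3 -0.056 with rescaling, with or without the block, and -0.050 and -0.28 with rescaling without those libraries. With a pseudocount of 5 MCM4 became 0.035 and MCM6 0.13 there. The depth is unknown, and MM1S levels at 24 h near the added 1 FPKM limit the log2 changes of low genes.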
